A study of Mus musculus with 9 samples.

Results

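FOXO transcription factors and the receptors and docking proteins of insulin signaling form a loop in which each side controls the other, and 10 genes of this loop were followed in mouse prostate cancer cells treated with asporin (ASPN). The genes were Foxo1, Foxo3, Foxo4, Irs1, Irs2, Insr, Igf1r, Ccng2, Sesn1 and Pik3ip1, taken by gene name from a table of 15384 protein-coding genes, and all 10 were found and passed the filter on low counts in each comparison. The cells were MyC-CaP, a single line from a prostate tumor of a mouse with a MYC transgene. Cells were starved in medium without serum and calcium for 6 to 12 hours and were collected at time 0, or 12 or 24 hours after the addition of 100 ng/mL recombinant mouse ASPN, a protein that stromal fibroblasts secrete, with 3 biological replicates at each time. GEO labels all 9 libraries as ASPN-treated, and those of 0 hours served as time 0. Libraries of cells kept for 12 or 24 hours without ASPN were not analysed here, so the treatment and the hours in culture cannot be told apart in any comparison below. The replicates were wells plated in triplicate, so that p-values measure the spread between wells.

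Insulin and insulin-like growth factors bind the receptors encoded by Insr and Igf1r, which phosphorylate the docking proteins IRS1 and IRS2. These recruit PI3K, the lipid kinase that turns on AKT, and AKT phosphorylates FOXO proteins and holds them in the cytoplasm. When AKT activity is low, FOXO proteins enter the nucleus and raise transcription of Insr and Irs2, and of genes that slow growth, such as Ccng2, Sesn1 and Pik3ip1. The receptors HER2 and HER3, which the study examined as targets of ASPN, also feed PI3K and AKT. The counts below are mRNA levels and measure neither FOXO phosphorylation nor its place in the cell.

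Total counts ran from 41881191 to 52993821 per library, and 3 counts corresponded to 0.0566 to 0.0716 CPM (counts scaled to the same library total). No replicates looked like one library deposited again, since their counts differed beyond sampling error in each of 9 pairs (the chi-square over its degrees of freedom was 3.41 to 17.5). Mitochondrially encoded mRNAs took 2.60% to 2.85% of the counts at time 0 and 12 hours and 0.113% to 0.203% at 24 hours. This change moved with every 24-hour result, and its part in them was not tested. Of 7 epithelial and prostate markers, 4 had a mean above 1 CPM (Krt19, Krt8, Hoxb13 and Cldn4), whereas Epcam, Cdh1 and Krt18 stayed below 0.5 CPM in all libraries. The summed level of the 7 was 176 to 211 CPM at time 0, 196 to 205 CPM at 12 hours and 259.8 to 297 CPM at 24 hours, a difference whose part in the results was likewise not tested. Of 10 fibroblast markers, 6 were among the genes of the table and 2 had a mean above 1 CPM (Pdgfra and Postn), with sums of 13.8 to 15.1, 13.3 to 13.6 and 11.1 to 12.0 CPM at the 3 times. Markers of immune cells (5 of 8 among the genes of the table) and of endothelial cells (4 of 5) had no member above 1 CPM and summed to at most 0.944 and 0.754 CPM in a library. Aspn itself had at most 0.186 CPM.

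Irs1 and Irs2, the genes with the deepest falls at 24 hours, share short sequence elements upstream of their start sites, and these sequences are shown so that the letters can be read beside the values. RefSeq promoter windows (GRCm38.p6; 250 bases before and 50 after a start site) matched 8 of the 10 genes, with 9 windows. Foxo4 and Insr had no window. The bases before the start site are printed 5′ to 3′ on the strand of the gene. Capitals mark CAAAACA, the core of the insulin response element that FOXO proteins bind, and CACGTG, the E-box of MYC and TFE family factors, on either strand.
Irs1 (chr1:82291440-82291689, minus strand): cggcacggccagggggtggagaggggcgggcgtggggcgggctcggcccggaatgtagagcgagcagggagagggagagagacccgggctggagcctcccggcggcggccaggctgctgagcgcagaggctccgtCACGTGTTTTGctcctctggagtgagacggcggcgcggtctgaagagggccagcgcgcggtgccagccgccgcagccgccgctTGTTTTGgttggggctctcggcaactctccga
Irs2 (chr8:11008930-11009179, minus strand): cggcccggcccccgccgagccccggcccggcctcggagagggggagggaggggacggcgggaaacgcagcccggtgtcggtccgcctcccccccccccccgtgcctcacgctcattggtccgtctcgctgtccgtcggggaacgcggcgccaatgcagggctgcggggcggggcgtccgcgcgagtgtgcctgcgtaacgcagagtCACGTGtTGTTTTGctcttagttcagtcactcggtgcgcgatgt
The Irs1 window held CAAAACA at 2 places and CACGTG at 1, where the latter overlapped the first CAAAACA. The Irs2 window held each at 1 place, with the E-box 44 bases and CAAAACA 37 bases before the start site. Among all 32851 windows of the table, 6.28% held CAAAACA, 7.15% held CACGTG and 0.408% held both. Ccng2 also had CAAAACA, so that 3 of the 9 windows held it, and the FOXO consensus GTAAACA was found in 1 of 9 (a window of Sesn1) and in 3.65% of all windows. The last 2 motifs of the search, CAAAACA and CACGTG, were chosen after the sequences had been read. A match in these letters is a description and not a measured binding site.

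To compare levels between genes, CPM were divided by the length of the gene's exons (CPM per kilobase). At time 0, Ccng2, which encodes a cyclin that opposes the cell cycle, was the most abundant of the 10, at 60.8 ± 0.588 CPM per kilobase (SD, n = 3). Sesn1 (26.5 ± 0.529) and Foxo4 (26.2 ± 0.861) followed, with overlapping libraries, and then Foxo3 (18.0 ± 0.861). Insr (15.7 ± 0.715), Pik3ip1 (14.2 ± 1.22) and Igf1r (13.6 ± 0.607) were next, and neighbors among these 3 overlapped. Irs2 (7.12 ± 0.604), Foxo1 (4.68 ± 0.405) and Irs1 (0.192 ± 0.0470) had the lowest levels, each apart from its neighbors. At 24 hours the levels of Ccng2 (61.6 ± 2.79) and Pik3ip1 (13.6 ± 1.48) were near those of time 0, and Irs2 (1.66 ± 0.103 CPM per kilobase) lay below Foxo1 (3.15 ± 0.128), the reverse of their order at time 0.

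**Figure D1:**
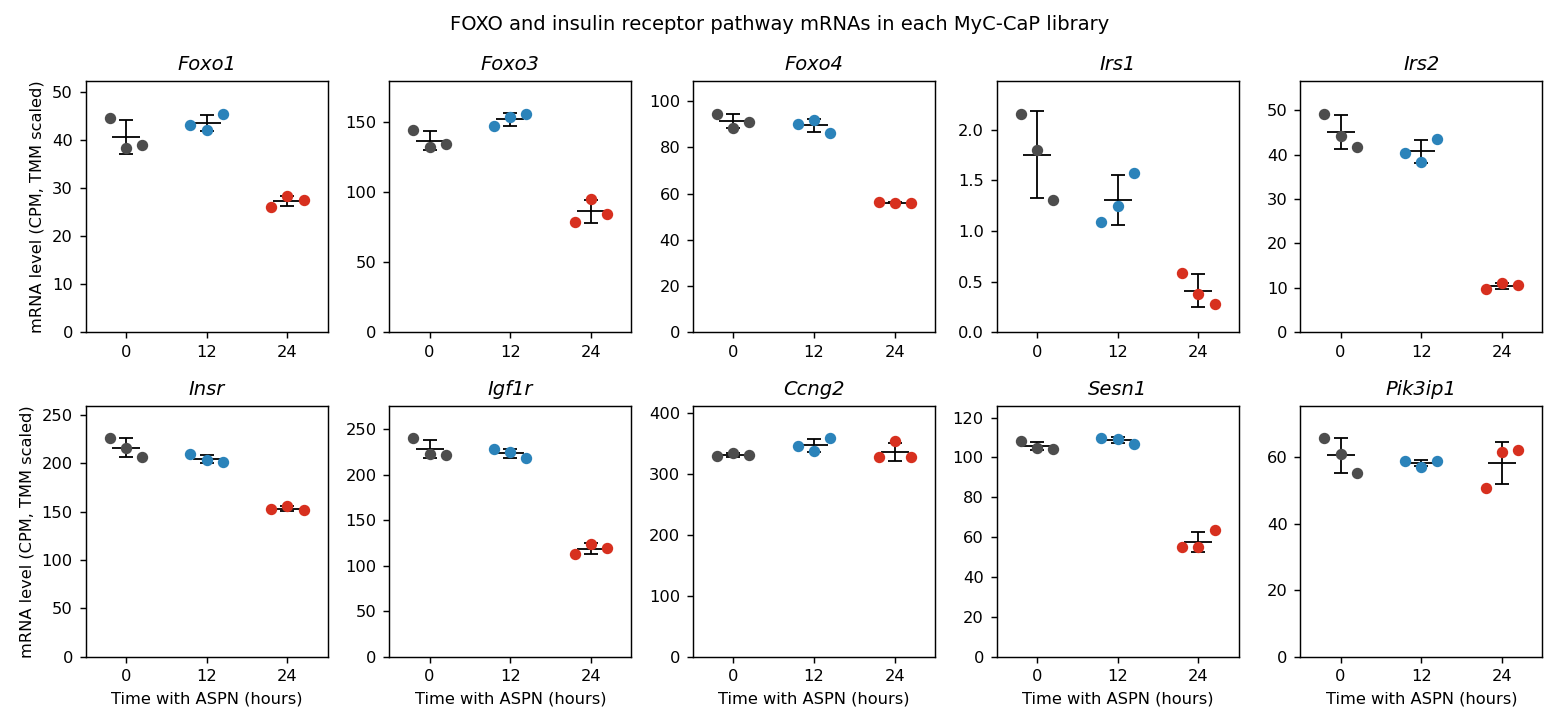
mRNA level (CPM, TMM scaled, vertical axes from 0) of the 10 genes in each of 9 MyC-CaP libraries by time with ASPN (horizontal axes, hours). Points are libraries, and horizontal bars with whiskers give mean ± SD (n = 3). In 8 panels the 3 red points of 24 hours lie below all others, and in those of Ccng2 and Pik3ip1 they overlap the earlier times.

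After 12 hours with ASPN none of the 10 mRNAs passed both an edgeR adjusted p of 0.05 and a 1.5-fold change. Of all 11410 tested genes, 1.6% passed both. DESeq2 also called 0 of the 10. With the adjusted p alone 1 of the 10 (Foxo3) passed, where 10.3% of all genes did. The median log2 fold change of the 10 genes was -0.02, and that of all tested genes was -0.00487.

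By 24 hours most of the loop was lower. Irs1, Irs2, Igf1r, Sesn1, Foxo4 and Foxo3 were called lower (6 of 10), where 16.8% of all 11444 tested genes were called lower and 28.8% were called in either direction. Foxo1 and Insr also had lower levels by the adjusted p but were short of 1.5-fold, which makes 8 of 10 lower by the adjusted p alone, compared with 36.5% of all genes. For these 8 genes the highest 24-hour library was under the lowest one of time 0, as it was for 38.3% of all genes. The median log2 fold change of the 10 genes was -0.68, and that of all tested genes was -0.02. The 10 genes and the lists below were chosen with earlier results of these data known. Their shares beside those of all genes are therefore a description and not a test. These are bulk libraries, in which fewer cells with an mRNA and less of it per cell cannot be told apart.

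The docking proteins had the deepest falls. Irs2 (ENSMUSG00000038894.7; chromosome 8, 10984681 to 11008458 in GRCm38), the main IRS gene of these cells by mRNA, had 49.2, 44.2 and 41.7 CPM in the 3 libraries of time 0. It had 40.3, 38.4 and 43.5 CPM at 12 hours and 9.77, 11.1 and 10.6 CPM at 24 hours. The 12-hour values overlapped those of time 0, and all 3 values of 24 hours were far below both. Irs2 fell 4.28-fold from time 0 to 24 hours (log2 fold change -2.10, SE 0.08, edgeR adjusted p = 1.2e-10), which placed it at the 0.891 percentile of the log2 fold changes of all tested genes. The 12-hour difference from time 0 was -0.14 on this scale (SE 0.06, edgeR adjusted p = 0.17), and -0.07 without time 0 replicate 1.

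Irs1 (ENSMUSG00000055980.2; chromosome 1, 82233101 to 82291416) encodes the other docking protein and was scarce, with 104, 84 and 71 counts in the libraries of time 0. It had 50, 58 and 69 counts at 12 hours and 24, 18 and 13 counts at 24 hours. The libraries did not overlap between times in counts, but in CPM those of time 0 and 12 hours did. Its fall at 24 hours was of the same size as that of Irs2 with a larger error (log2 fold change -2.10, SE 0.31, edgeR adjusted p = 4.5e-05), and at 12 hours the log2 fold change was -0.42 (SE 0.22, edgeR adjusted p = 0.31), with a range of -0.60 to -0.24 when single libraries were left out. Per kilobase, Irs1 had 0.0267 ± 0.00455 of the counts of Irs2 at time 0 and 0.0276 ± 0.0123 at 24 hours (SD, n = 3). On the opposite strand, exons of Gm9747 cover 2822 bases of Irs1 exons, and since the strand setting of the counting is not stated, reads from the 2 genes cannot be told apart there.

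The receptors were lower to unequal degrees. Igf1r (ENSMUSG00000005533.10; chromosome 7, 67952827 to 68233668), which encodes the receptor of insulin-like growth factors, had 240.0, 223 and 222 CPM at time 0, 228, 225 and 218 CPM at 12 hours and 112, 124 and 120 CPM at 24 hours. The first 2 times overlapped, and the level at 24 hours was 1.91-fold lower than at time 0 (log2 fold change -0.94, SE 0.05, edgeR adjusted p = 1.9e-09). Insr (ENSMUSG00000005534.10; chromosome 8, 3122061 to 3279617), the insulin receptor gene, had 225, 216 and 206 CPM at time 0, 209, 203 and 201 CPM at 12 hours and 153, 155 and 151 CPM at 24 hours. It was 1.40-fold lower at 24 hours (log2 fold change -0.49, SE 0.04, edgeR adjusted p = 2.9e-07), and reached 1.5-fold under 1 alternative, scaling by total counts (-0.71).

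Ratios within a library do not depend on the scaling between libraries, and they show the same inequality. Igf1r had 0.866 ± 0.0203 of the counts per kilobase of Insr at time 0, 0.895 ± 0.00918 at 12 hours and 0.635 ± 0.0276 at 24 hours (SD, n = 3), with no overlap between 24 hours and either earlier time. The ratio of Irs2 to Insr was 0.453 ± 0.0185 at time 0, 0.433 ± 0.0322 at 12 hours and 0.149 ± 0.00828 at 24 hours, again apart from both earlier times. Each of these differences of 24 hours from the earlier times had an exact two-sided permutation p of 0.1 (0.225 after Benjamini-Hochberg adjustment over 27 comparisons of ratios and shares), and 0.1 is the smallest p that 3 against 3 libraries allow.

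**Figure D2:**
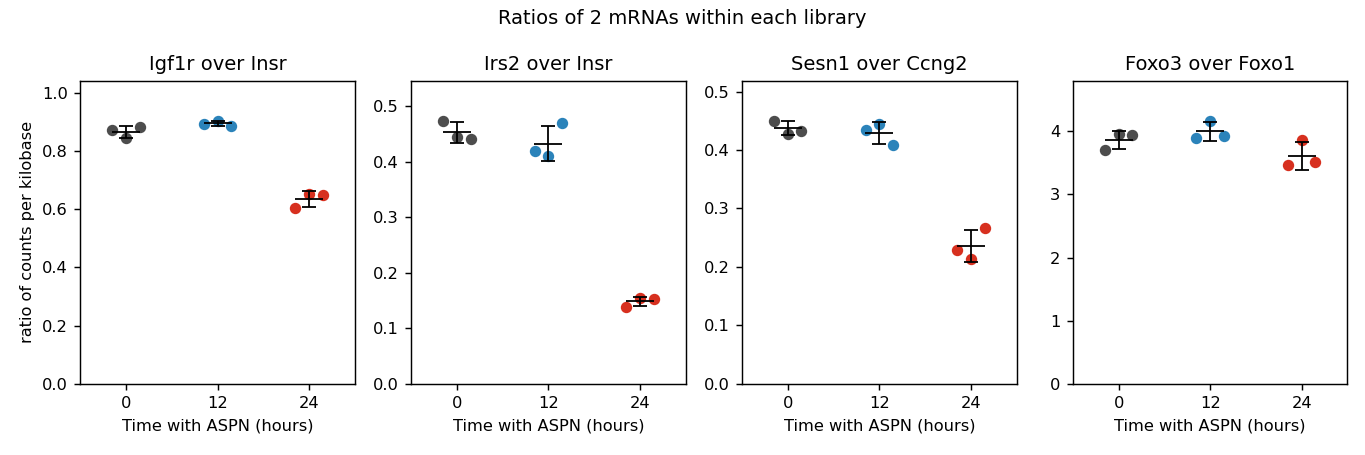
Ratios of 2 mRNAs (counts per kilobase of exon, vertical axes from 0) within each library by time with ASPN (horizontal axes, hours). Points are libraries and bars with whiskers mean ± SD (n = 3). The ratios of Igf1r to Insr (mean of 0.635 at 24 hours), Irs2 to Insr (0.149) and Sesn1 to Ccng2 (0.236) at 24 hours lie below both earlier times, whereas Foxo3 to Foxo1 (3.61) overlaps time 0.

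The 3 FOXO genes were lower together at 24 hours. Foxo3 (ENSMUSG00000048756.11; chromosome 10, 42181841 to 42276755) had 144, 132 and 134 CPM at time 0, 147, 153 and 156 CPM at 12 hours and 78.9, 95.1 and 84.3 CPM at 24 hours. In the main fit Foxo3 was the only one of the 10 genes that passed the adjusted p at 12 hours. All 3 of its libraries of that time lay above those of time 0, as they did for 13.4% of all genes. This rise was small (1.12-fold, log2 fold change 0.16, SE 0.04, edgeR adjusted p = 0.013) and its adjusted p exceeded 0.05 in the fit of all 9 libraries (0.12) and without time 0 replicate 3 (0.067), 12 hours replicate 2 (0.076) or 12 hours replicate 3 (0.083). Over all alternatives it ranged from 0.00016 to 0.12. Over the same alternatives the lowest edgeR adjusted p at 12 hours was 0.01 for Foxo1 and 0.029 for Irs2, and neither was called. At 24 hours Foxo3 was 1.58-fold lower than at time 0 (log2 fold change -0.66, SE 0.06, edgeR adjusted p = 5.5e-07), and it was short of 1.5-fold once exon length and GC content were corrected for (-0.46).

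Foxo4 (ENSMUSG00000042903.8; chromosome X, 101254528 to 101260873), the most abundant FOXO mRNA per kilobase, had 94.6, 88.6 and 90.9 CPM at time 0, 90.3, 91.9 and 86.3 CPM at 12 hours and 56.2, 56.1 and 56.0 CPM at 24 hours. The replicates of 24 hours were nearly equal, and all lay below the earlier libraries, which overlapped each other. Its log2 fold change at 24 hours was -0.70 (SE 0.04, edgeR adjusted p = 9.9e-09), and it was short of 1.5-fold with the length and GC correction (-0.56). Foxo1 (ENSMUSG00000044167.6; chromosome 3, 52268336 to 52353221) had 44.6, 38.2 and 38.9 CPM at time 0, 43.1, 42.1 and 45.4 CPM at 12 hours and 26.1, 28.2 and 27.5 CPM at 24 hours. The first 2 times overlapped and the third was below both, with a log2 fold change of -0.57 (SE 0.07, edgeR adjusted p = 4.6e-06) from time 0 to 24 hours. Foxo1 was just short of 1.5-fold, and it passed with total-count scaling (-0.79) and without time 0 replicate 2 (-0.60), time 0 replicate 3 (-0.59) or 24 hours replicate 2 (-0.59), whereas the length and GC correction placed it at -0.44.

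The 3 genes kept their order within FOXO mRNA at each time. Per kilobase, Foxo4 held 53.6% ± 0.617 of the 3 mRNAs at time 0, 50.6% ± 1.39 at 12 hours and 52.6% ± 2.09 at 24 hours, Foxo3 held 36.9% ± 0.225, 39.5% ± 1.06 and 37.1% ± 2.10, and Foxo1 held 9.56% ± 0.413, 9.90% ± 0.460 and 10.3% ± 0.144 (SD, n = 3). At 12 hours the Foxo3 share lay above and the Foxo4 share below those of time 0 in all libraries, and at 24 hours the Foxo1 share lay above that of time 0 (exact two-sided permutation p of 0.1 for each, adjusted p of 0.225). Foxo6, the remaining FOXO gene, had at most 5 counts in a library.

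Of the 3 growth-restraining genes that FOXO proteins raise, 1 fell and 2 did not pass the test. Sesn1 (ENSMUSG00000038332.13; chromosome 10, 41809935 to 41908424), which encodes a sestrin that restrains mTORC1, had 108, 105 and 104 CPM at time 0, 109.6, 109 and 107 CPM at 12 hours and 54.8, 54.9 and 63.6 CPM at 24 hours. It was 1.82-fold lower at 24 hours than at time 0 (log2 fold change -0.87, SE 0.06, edgeR adjusted p = 1.6e-08), with no overlap with either earlier time. Ccng2 (ENSMUSG00000029385.14; chromosome 5, 93267257 to 93276231) had 329, 335 and 331 CPM at time 0, 345, 338 and 358 CPM at 12 hours and 327, 354 and 327 CPM at 24 hours. Its libraries of 12 hours all lay above those of time 0, as they did for Foxo3 and for 13.4% of all genes. That difference was small (log2 fold change 0.07, SE 0.03, edgeR adjusted p = 0.22). The Ccng2 libraries of 24 hours overlapped those of time 0, with a log2 fold change of 0.02 (95% interval -0.07 to 0.12, edgeR adjusted p = 0.62).

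Pik3ip1 (ENSMUSG00000034614.14; chromosome 11, 3330401 to 3342971), whose product inhibits the catalytic subunit of PI3K, had 65.6, 60.9 and 55.2 CPM at time 0, 58.9, 57.1 and 58.7 CPM at 12 hours and 50.8, 61.5 and 62.1 CPM at 24 hours. The 3 times overlapped, with a log2 fold change of -0.05 at 24 hours (95% interval -0.22 to 0.12, edgeR adjusted p = 0.56). The intervals of Ccng2 and Pik3ip1 exclude a 1.5-fold change in either direction. With total-count scaling, which moved the median of all genes to -0.24, Ccng2 (-0.20) and Pik3ip1 (-0.27) passed the adjusted p at 24 hours without reaching 1.5-fold. The ratio of Sesn1 to Ccng2 per kilobase was 0.437 ± 0.0119 at time 0, 0.429 ± 0.0185 at 12 hours and 0.236 ± 0.0274 at 24 hours (SD, n = 3), so that the libraries of 24 hours were apart from the others (exact two-sided permutation p of 0.1, adjusted p of 0.225).

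**Figure D3:**
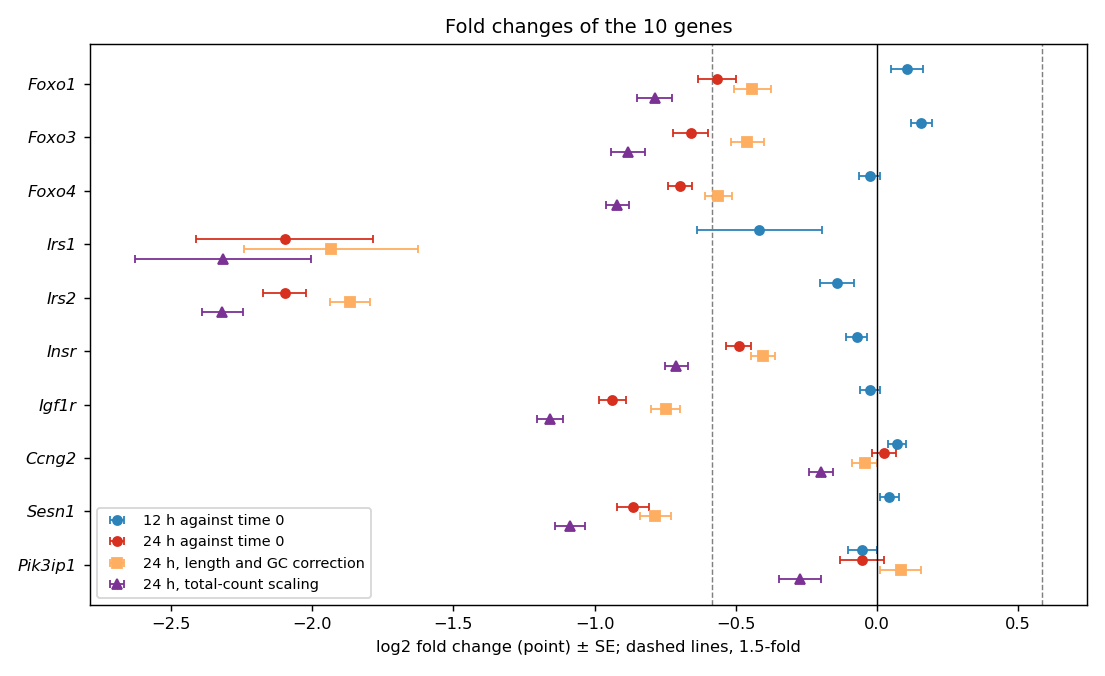
log2 fold change ± SE (horizontal axis) of each of the 10 genes (vertical axis) at 12 hours and, under 3 treatments of the counts, at 24 hours, both against time 0, with dashed lines at 1.5-fold. Irs1 and Irs2 lie near -2.10 at 24 hours, and the length and GC correction shifts the values of Foxo3 (-0.46) and Foxo4 (-0.56) inside the line.

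Transcript length moved with the 24-hour changes over all genes. Genes with exons of up to 2000 bases had a median log2 fold change of 0.15 (1426 genes), and those of more than 8000 bases had -0.12 (2025 genes). The exons of the 10 genes covered 3485 bases (Foxo4) to 16791 bases (Igf1r), and 4 of the 10 exceeded 8000. After a correction for length and GC content, Irs2 (-1.87), Irs1 (-1.93), Sesn1 (-0.78) and Igf1r (-0.75) were still called, and Foxo3 (-0.46) and Foxo4 (-0.56) were short of 1.5-fold with adjusted p-values of 2.7e-06 and 2.4e-08 from edgeR. Total-count scaling shifted the median of all genes to -0.24 and with it the split of all calls, from 1374 higher and 1924 lower to 698 and 3008. Relative to that median, Ccng2 was at 0.04 and Pik3ip1 at -0.04, and Irs2 was at -2.08.

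Levels were also compared directly between 12 and 24 hours. Here 7 of the 10 genes were called, all lower at 24 hours, where 15.3% of 11394 tested genes were called lower and 25.7% in either direction. The log2 fold changes were -1.93 for Irs2 (SE 0.07), -1.66 for Irs1 (SE 0.31), -0.89 for Igf1r (SE 0.04), -0.89 for Sesn1 (SE 0.05) and -0.80 for Foxo3 (SE 0.06). Foxo1 and Foxo4 were both at -0.65 (SE 0.05 and 0.04), and after the length and GC correction they were at -0.53 and -0.55, short of 1.5-fold. Insr had -0.40 (SE 0.03, edgeR adjusted p = 2.4e-07), while Ccng2 (-0.02, edgeR adjusted p = 0.61) and Pik3ip1 (0.02, edgeR adjusted p = 0.78) did not pass the test. With the length and GC correction both passed the adjusted p, far short of 1.5-fold, at -0.10 for Ccng2 (edgeR adjusted p = 0.044) and 0.14 for Pik3ip1 (0.047), and so did Pik3ip1 without 24 hours replicate 1 (0.11).

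Other genes of the pathway were counted by role from 9 lists, and called genes are named as the 2 highest and the 2 lowest of a list. Counts at 24 hours are to be read against the 28.8% of all tested genes that were called in either direction and the 16.8% called lower, and medians against -0.02 for all tested genes. Of 11 ligands and binding proteins, 6 were among the genes of the table, and Igf1 had at most 1 count in a library. Igfbp5, which encodes a secreted binding protein of insulin-like growth factors, was abundant, with 997 ± 59 CPM at time 0, 722 ± 20 CPM at 12 hours and 239 ± 25 CPM at 24 hours (SD, n = 3). It fell by 24 hours, with a log2 fold change of -2.05 (SE 0.07, edgeR adjusted p = 8.2e-11). The list of receptors and their relatives also holds enzymes that are not receptors. Of its 6 tested genes 1 was called at 24 hours, Cpe (0.62), a processing enzyme of prohormones. Of 9 tested adaptors 0 were called by edgeR or DESeq2. With the adjusted p alone 4 adaptors were lower, where 36.5% of all genes were, and 1 was higher. The median log2 fold changes were 0.26 for the receptor list and -0.03 for the adaptors. In the receptor list 3 genes were called with the length and GC correction, 2 without time 0 replicate 1 and 0 without time 0 replicate 3. This count therefore rests on the processing.

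Called PI3K subunits went in both directions at 24 hours, with 2 higher and 3 lower of 9 tested (median -0.22), beside 28.8% of all genes called and 16.8% called lower. The lipid kinase Pik3cd (1.11) and the class II enzyme Pik3c2a (1.01) were higher, and Pik3r4 (-1.30) and the regulatory subunit Pik3r1 (-1.19) were lower on the log2 scale. Pik3cd, at 1.86 ± 0.216 CPM at time 0, was also called at 12 hours (0.71, edgeR adjusted p = 0.0044), a call that was lost in the fit of all 9 libraries. Among AKT and its partner kinases 2 of 9 tested were called lower, beside 16.8% of all genes, namely Sgk1 (-1.07), an AKT relative that also phosphorylates FOXO proteins, and Mtor (-0.86). The list of inhibitors had 2 of 13 higher, Trib3 (0.91), which encodes a pseudokinase that binds AKT, and Pik3r6 (0.82). Pik3r6 was counted in this list although it encodes a regulatory subunit of a PI3K, not an inhibitor. A further 3 were lower, among them Socs1 (-1.31) and the phosphatase gene Ptpn1 (-0.81). This makes 5 of 13 called beside 28.8% of all genes (median -0.32).

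In the list of TSC and mTORC1 genes 1 of 16 was called higher at 24 hours, the stress-induced sestrin gene Sesn2 (0.76), and 2 lower, Eif4ebp2 (-1.19) and Rptor (-0.62), so that 3 of 16 were called (median -0.10), a smaller share than the 28.8% of all genes. Regulators and partners of FOXO proteins had 1 of 24 higher (Stk3, 0.69, a kinase of the Hippo pathway) and 3 lower, including Sfn (-1.51) and the acetyltransferase gene Ep300 (-1.23), and these 4 of 24 (median 0.03) were also a smaller share than 28.8%. Thus Sesn1 and Sesn2, which encode relatives, had log2 fold changes of opposite sign. The third sestrin gene, Sesn3, was lower like Sesn1 but short of 1.5-fold (-0.50, edgeR adjusted p = 4.9e-06).

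The list of genes that FOXO proteins are known to induce did not move as a block. At 24 hours 5 of 34 tested genes were called higher and 8 lower, beside 28.8% of all genes called in either direction and 16.8% called lower, with a median log2 fold change of -0.13 beside -0.02 for all tested genes. Cdkn1a (1.62), a cell cycle inhibitor, and Bcl6 (1.59), a transcriptional repressor, were the highest, and Fbxo32 (-1.75), a ubiquitin ligase of muscle wasting, and Trib1 (-1.68) were the lowest. At 12 hours 2 of 34 genes were called, both higher, beside 1.6% of all genes. Bcl6 went from 11.05 ± 0.953 CPM at time 0 to 20.4 ± 1.22 CPM at 12 hours and 33.0 ± 5.25 CPM at 24 hours. Tnfsf10, which encodes the death ligand TRAIL, had 4.96 ± 0.273 CPM at time 0, 28.7 ± 5.36 CPM at 12 hours and 7.33 ± 0.360 CPM at 24 hours (SD, n = 3), and was called at 12 hours (log2 fold change 2.54, SE 0.11, edgeR adjusted p = 8.6e-11) but was just short of 1.5-fold at 24 hours (0.57).

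**Figure D4:**
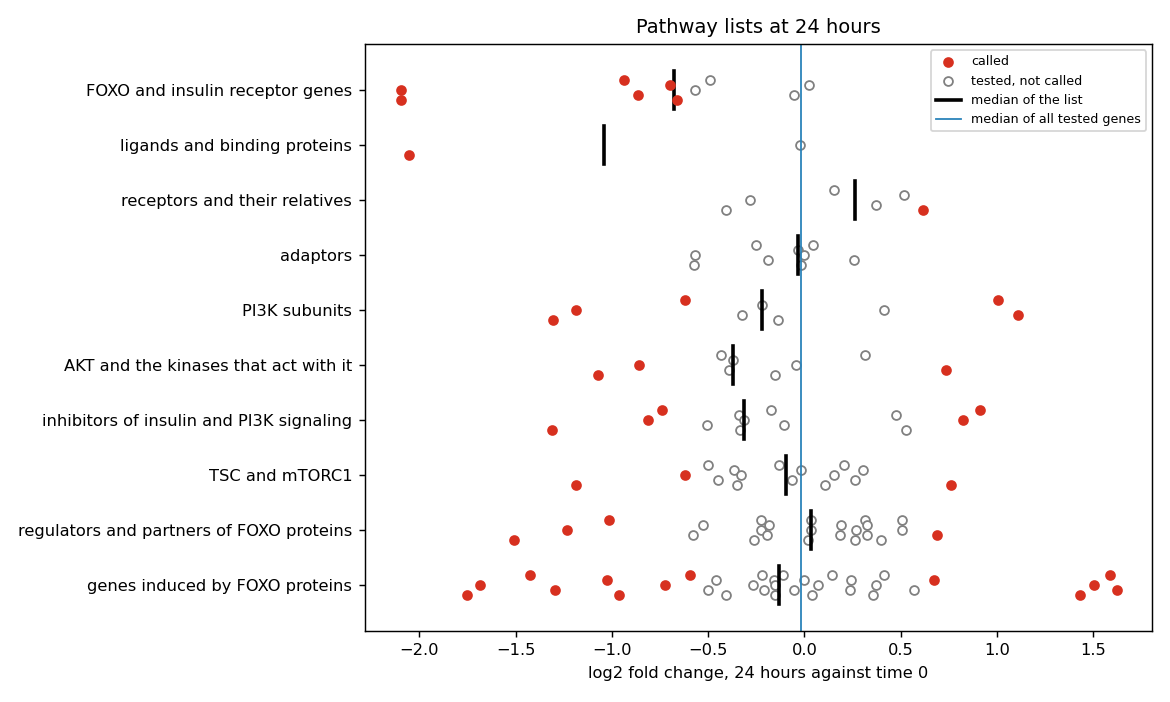
log2 fold change at 24 hours against time 0 (horizontal axis) of the tested genes of each list (vertical axis). Filled points were called, open points were tested and not called, black bars are list medians, and the blue line is the median of all tested genes (-0.02). The 10 genes described have a median of -0.68, and the list of FOXO-induced genes spreads to both sides.

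For each of the 10 genes, the gene with the most similar profile was found by Pearson correlation of log2 CPM over the 9 libraries, among 8349 genes with a mean of at least 10 CPM. The nearest were Notch2 for Igf1r (r = 0.9995), Hs2st1 for Irs2 (0.9994), Tada2b for Foxo4 (0.999), Zfp146 for Sesn1 (0.997), H6pd for Foxo3 (0.997), Aifm3 for Insr (0.996), Sipa1l1 for Foxo1 (0.994) and Tulp4 for Irs1 (0.989). These values rest on 3 times that all genes share, and 1737 genes reached r = 0.95 with Igf1r and 1736 with Irs2. Ccng2 (Smtnl2, 0.933) and Pik3ip1 (Lamb2, 0.892) had no gene at that level.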

How the data were processed

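Per the supplementary methods, the authors trimmed paired-end TruSeq mRNA reads with Cutadapt, aligned them to GRCm38.p6 with STAR and counted reads per gene with featureCounts. The table that the authors deposited holds raw counts of 9 libraries. Exon length and GC content came from GENCODE M21 (15374 of 15384 genes matched by identifier). For each comparison of 2 times, low genes were removed by filterByExpr, TMM factors set the scale and edgeR's quasi-likelihood test was run (edgeR 4.0.16, R 4.3.3), with Benjamini-Hochberg adjustment over all tested genes. Genes with an adjusted p of 0.05 or less and at least a 1.5-fold change were called. CPM are TMM scaled over 9 libraries. The alternatives were RLE, upper-quartile and total-count scaling, no filter, a minimum of 10 counts per library, a joint fit of all 9 libraries, a replicate block, DESeq2 1.42.0, a length and GC correction (with and without the block), each library left out, and the adjusted p alone. The 10 genes and the lists were chosen with earlier results of these data known. The text names the 10 genes, the highest and lowest called genes of each list (up to 2 each at 24 hours), list genes called at 12 hours, and the nearest profile of each of the 10. The fit was tested on simulated data. Some genes of the marker and pathway lists are not reported here. Intervals cover the spread between libraries, and floors of 3 counts cover counting error alone.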

Additional observations from a re-analysis of the deposited data

Results flagged for a closer look

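For 7 genes the change at 24 hours differed from the change at 12 hours by at least 1.5-fold and with an adjusted p of 0.05 or less in the direct comparison of these times (edgeR's quasi-likelihood test). The difference on the log2 scale was -1.93 for Irs2, -1.66 for Irs1, -0.89 for Igf1r, -0.89 for Sesn1, -0.80 for Foxo3, -0.65 for Foxo1 and -0.65 for Foxo4. Insr also passed the adjusted p, with a difference of -0.40 that was short of 1.5-fold. For Foxo3 all 3 libraries of 12 hours lay above time 0 and all 3 of 24 hours below it.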

How the results depend on the processing

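Of the 10 genes, 0 were called at 12 hours, 6 at 24 hours and 7 between 12 and 24 hours, and these counts moved by more than 1.5 times under 1 alternative, the adjusted p alone, which gave 1 at 12 hours. For the lists together, 3, 35 and 32 genes were called, and 21, 97 and 99 with the adjusted p alone. RLE and upper-quartile factors, no filter, the filter of 10 counts in every library, the fit of all 9 libraries and DESeq2 each gave 0, 6 and 7 of the 10 genes. Total-count scaling gave 8 of the 10 at 24 hours, and the length and GC correction gave 4. Total-count scaling also raised the calls at 24 hours in the lists of adaptors (to 2), of AKT and its partner kinases (to 5) and of TSC and mTORC1 genes (to 5), and 1 adaptor was called without time 0 replicate 1 or without 24 hours replicate 2. With each library left out in turn, 6 to 7 of the 10 genes were called at 24 hours. A fit that took the replicate number as block gave counts of 0, 6 and 7, and Irs2 had a log2 fold change of -2.09 at 24 hours. The block changed no call of the 10 genes. Deviations of same-numbered libraries had correlations of -0.18 to 0.11, so the numbers were not taken to pair the samples. The sign of values that were not called changed as follows. At 24 hours against time 0, Ccng2 was at -0.20 with total counts, -0.0438 with the length and GC correction and -0.0453 with this correction and the block, and Pik3ip1 was at 0.0844 and 0.0839 under the same corrections. Between 12 and 24 hours Pik3ip1 was at -0.20 with total counts (Ccng2, with no change of sign, at -0.25), and both passed the adjusted p there. With single libraries left out, the 12-hour values ranged from -0.0477 to 0.002 for Foxo4, from -0.0451 to 0.0149 for Igf1r and from -0.12 to 0.0122 for Pik3ip1. Those of 24 hours ranged from -0.0132 to 0.0448 for Ccng2 and from -0.10 to 0.0341 for Pik3ip1, and those between 12 and 24 hours from -0.028 to 0.11 for Pik3ip1. The cause was not tested. At the lowest depth of the 10 genes, 13 counts of Irs1 in a library of 24 hours, counting error limits the value.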
